A study of Mus musculus with 12 samples.

Results

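The olfactory bulb is supplied throughout life with inhibitory interneurons, and 10 genes that mark these cells were followed in the brains of mice without Mettl5. The genes were Sp8, Meis2, Pbx3, Etv1, Calb2, Scgn, Th, Gng4, Frmd7 and Cpa6, which made up 10 of the 55487 genes of the count table, and each had 1 row in it. They were chosen as markers of granule and periglomerular interneurons with their KO and WT brain values already known, some because they were higher in KO brain and Etv1 because it was lower. Their difference between KO and WT brain is therefore a description, given without a test. The genes are tested between KO and WT in the liver of the same mice, which did not choose them. Their levels in brain and liver of WT mice are again described, since the WT brain libraries took part in the choice.

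Total RNA was sequenced from the brain and liver of 6 mice, which gave 4 groups of 3 libraries. Mice A, C and F carried the METTL5 KO genotype and mice B, D and E were labelled WT, and no treatment was given to either group. In the study, the KO was a whole body deletion: exon 2 of Mettl5 was floxed in ES cells of a hybrid strain, the line was backcrossed to B6 and exon 2 was then removed by crossing to CMV-cre, a transgene active in nearly all tissues. The study used both sexes at 4 weeks to 6 months of age, the labels state neither for a single mouse, whereas the study's figure text calls the controls of this sequencing heterozygous. The name WT is kept here as the labels have it.

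Interneurons of the olfactory bulb arise from neural progenitors along the wall of the lateral ventricle, migrate forward as neuroblasts and settle either as granule cells in the depth of the bulb or as periglomerular cells around the glomeruli, where sensory axons meet mitral and tufted cells. Most use GABA, and periglomerular cells fall into types that contain calretinin (the product of Calb2), calbindin or tyrosine hydroxylase (the product of Th). Transcription factors such as Sp8, Meis2, Pbx3 and Etv1 help to set these types, and several of the genes are also used by neurons outside the bulb, Etv1 and Calb2 by granule cells of the cerebellum, Meis2 by neurons of the striatum and Th by dopamine neurons of the midbrain.

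The stretches of DNA in front of 5 of the genes are shown because these genes stood at the ends of the range: Frmd7, Scgn and Sp8 had the largest ratios of KO to WT brain among the genes whose start site was given, Etv1 was the gene below WT, and Th carries the one cAMP response element found among them. Start sites were taken from RefSeq (GRCm38.p6) and were held for 7 of the 10 genes, in 11 windows. Each line gives the 150 bases before a start site, 5′ to 3′ on the gene's strand, with matches to a TATA box (TATAAA), a GC box (GGGCGG), a GT box (GGGTGG), a MEIS element (TGACAG), an ETS element (CCGGAAG), a homeodomain element (TAATTA) or a cAMP response element (TGACGTCA) in capitals, on either strand.
Frmd7 (chrX:50942770-50942919, minus strand): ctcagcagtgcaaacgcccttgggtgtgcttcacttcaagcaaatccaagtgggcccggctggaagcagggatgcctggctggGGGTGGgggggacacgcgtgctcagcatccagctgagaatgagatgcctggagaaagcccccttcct
Scgn (chr13:23991215-23991364, minus strand): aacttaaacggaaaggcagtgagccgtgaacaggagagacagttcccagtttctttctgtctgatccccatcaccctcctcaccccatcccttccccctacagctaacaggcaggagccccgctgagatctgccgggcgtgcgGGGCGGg
Sp8, first of its start sites (chr12:118846179-118846328, plus strand): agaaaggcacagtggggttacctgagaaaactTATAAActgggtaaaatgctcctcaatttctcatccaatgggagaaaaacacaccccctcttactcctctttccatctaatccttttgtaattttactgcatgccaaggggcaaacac
Th (chr7:142899996-142900145, minus strand): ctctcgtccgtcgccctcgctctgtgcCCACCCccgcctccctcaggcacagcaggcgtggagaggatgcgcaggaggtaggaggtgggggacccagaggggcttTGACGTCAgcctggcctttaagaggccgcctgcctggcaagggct
Etv1, first of its start sites (chr12:38779932-38780081, plus strand): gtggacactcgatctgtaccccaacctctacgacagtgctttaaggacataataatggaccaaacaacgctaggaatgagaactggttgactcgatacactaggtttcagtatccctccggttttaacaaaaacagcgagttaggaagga
The capitals mark a GT box in Frmd7, a GC box in Scgn, a TATA box in Sp8, and a GT box and a cAMP response element in Th, whose first base lies at position -45 from the start site. The printed stretch of Etv1 held none of these letters.

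Over the windows of 250 bases before to 50 after a start site, the cAMP response element was found in 1 of the 11 windows and in 1.79% of all 32851 RefSeq windows of that length. A GT box was found in 5 of the 11 windows (31.5% of all windows), a GC box in 4 (35.7%), a TATA box in 3 (13.6%), a MEIS element in 2 (19.2%) and a homeodomain element in 1 (5.29%). The ETS element, the kind of letters that Etv1 itself binds, was in 0 of the 11 and in 8.86% of all windows, while the short E box (CANNTG, not in capitals) was in 7 of the 11 and 72.3% of all windows. None of these motifs contains another, and windows of 1 gene are not independent. A match is a run of letters and was not tested as a site.

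Library totals ran from 14403309 to 18365114 counts in brain and from 16145754 to 21623180 in liver. Snap25, a neuronal transcript, had 14504 to 23776 counts in each brain library, and Alb, the albumin transcript of hepatocytes, had at least 842812 counts in each liver library. Mettl5 stood at 3.33, 3.96 and 3.82 CPM (edgeR's normalised read count, with each library scaled to a common size) in the brains of KO mice A, C and F, and at 9.09, 5.87 and 5.02 CPM in WT mice B, D and E. In liver it ran from 3.64 to 4.07 CPM in KO and from 8.13 to 14.9 CPM in WT. The 3 KO libraries lay below the 3 WT libraries in both tissues, with an edgeR adjusted p of 0.373 in brain and 0.383 in liver and an exact two-sided permutation p of 0.1 in each, the smallest that 3 against 3 allows. The counts sum over all exons and so include those outside the deletion. Mice F and E had 9446 and 10154 counts of Xist in brain against 0 to 3 in the other 4 mice, so each genotype held 1 mouse with Xist RNA.

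In brain, the 10 genes split into those well above WT and a few that were not. The 3 KO libraries lay above the 3 WT libraries for 7 genes (Sp8, Meis2, Pbx3, Scgn, Gng4, Frmd7 and Cpa6) and below them for 1 (Etv1), and the groups overlapped for 2 (Th and Calb2). Over all 17188 genes tested in brain, 8.41% had all KO libraries above all WT libraries and 7.94% had them below. By edgeR's quasi-likelihood test with Benjamini-Hochberg adjustment at a threshold of 0.1, 0.064% of genes were higher in KO (11 genes) and 0% were lower. At an unadjusted p under 0.05 stood 1024 higher and 861 lower genes, and DESeq2 called 136 higher and 133 lower. Since the 10 genes were chosen on this contrast, nothing is read from their counts. The median log2 fold change of the 10 genes was 1.22, which follows in part from their choice. That of all genes tested was -0.0016. In brain homogenates, a change in the cells of a type, in RNA per cell or in the regions sampled cannot be told apart. The labels do not state how much bulb and cerebellum each brain sample held, and this was not tested.

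**Figure D1:**
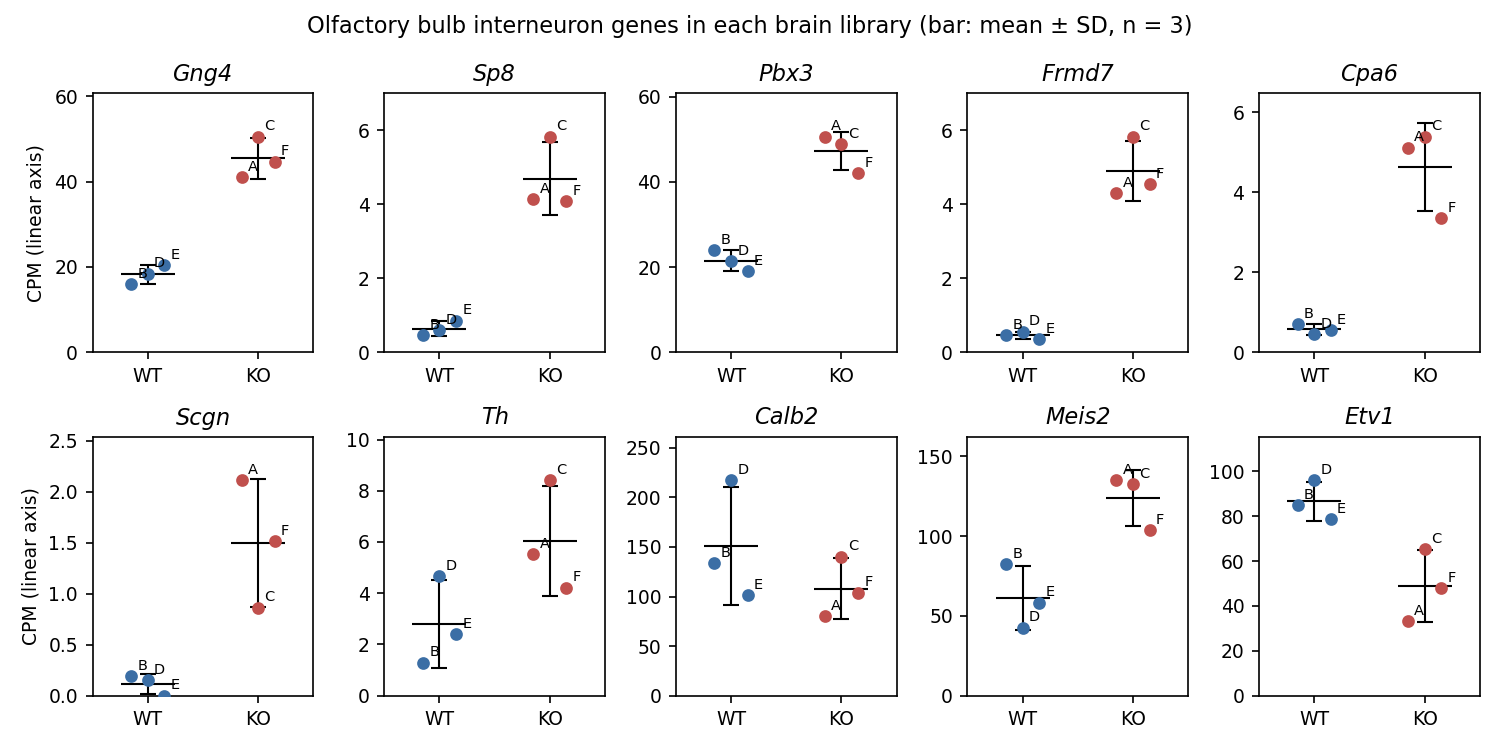
Level of each of the 10 genes in each brain library, in CPM on linear axes that start at 0, with WT mice (B, D, E) in blue and KO mice (A, C, F) in red, and the mean ± SD (n = 3) as bars. The KO points lie above the WT points in 7 panels and below them for Etv1, and the points of Th and Calb2 overlap.

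Among the transcription factors, Sp8 showed the greatest contrast. Sp8 (chromosome 12, 118846329 to 118852576, mm10) encodes a zinc finger protein needed for the calretinin type of bulb interneuron. It stood at 4.15, 5.83 and 4.09 CPM in KO mice A, C and F and at 0.451, 0.602 and 0.854 CPM in WT mice B, D and E. The lowest KO library was 4.79 times the highest WT library. The means were 4.69 ± 0.988 (SD, n = 3) and 0.636 ± 0.204 CPM (SD, n = 3), and on the log2 scale KO exceeded WT by 2.85 (SE 0.35). The WT values rest on 7, 12 and 17 counts.

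Meis2 and Pbx3 encode homeodomain proteins of the TALE class, which bind DNA together with other homeodomain partners. Meis2 (chromosome 2, 115863064 to 116065839) had 135, 132 and 104 CPM in KO mice A, C and F and 82.6, 42.6 and 58.4 CPM in WT mice B, D and E, with a log2 fold change of 1.02 (SE 0.23). Its WT mice differed from one another more than its KO mice did, with a coefficient of variation of 32.9% against 14.1%. Pbx3 (chromosome 2, 34171457 to 34373142) had 50.6, 48.8 and 42.1 CPM in the same KO mice and 24.0, 21.5 and 19.0 CPM in the WT mice. Its log2 fold change was 1.14 (SE 0.15), and every KO library lay at least 1.76 times above every WT library. Pbx3 was among the tightest of the 10 genes within a group, with coefficients of variation of 9.51% in KO and 11.5% in WT.

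Etv1 ran the other way. It encodes an ETS transcription factor made by progenitors and interneurons of the bulb, by layer 5 neurons of the cortex and by cerebellar granule cells, and lies on chromosome 12 from 38779380 to 38870484. Its level was 33.3, 65.3 and 47.9 CPM in KO mice A, C and F, against 85.1, 96.1 and 78.7 CPM in WT mice B, D and E. All KO libraries were below all WT libraries, with means of 48.9 ± 16.0 and 86.6 ± 8.83 CPM (SD, n = 3 each) and a log2 fold change of -0.83 (SE 0.22). The KO mice spread widely, C being at 1.96 times the level of A.

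Of the calcium-binding proteins, the calretinin gene overlapped between the groups and the secretagogin gene did not. Calb2 (chromosome 8, 110137502 to 110168210), which encodes calretinin, had 80.0, 140 and 104 CPM in KO mice A, C and F and 134, 217 and 101 CPM in WT mice B, D and E. The groups overlapped, since KO mouse C was above WT mice B and E, and the log2 fold change was -0.48 (SE 0.30). Scgn (chromosome 13, 23953456 to 23991214), which encodes secretagogin and is made by many bulb interneurons, had 26, 12 and 23 counts in KO mice A, C and F and 3, 3 and 0 counts in WT mice B, D and E. These are 2.11, 0.863 and 1.52 CPM in KO and 0.193, 0.151 and 0 CPM in WT. The 61 KO counts against 6 WT counts give a ratio of 13.6 on TMM-scaled library totals, with an exact counting interval (Clopper-Pearson, 95%) from 5.90 to 38.5. This and every other counting interval given here cover counting error only, since they pool the mice of a group and reads of 1 library are not independent molecules. The fitted log2 fold change of a gene with so few WT counts depends on the prior count, and the median over the 10 genes is the same whichever value above the others Scgn takes.

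Th encodes the rate-limiting enzyme of dopamine synthesis and marks the dopamine type of periglomerular cell (chromosome 7, 142892752 to 142931128). It stood at 5.53, 8.42 and 4.22 CPM in KO mice A, C and F and at 1.29, 4.67 and 2.41 CPM in WT mice B, D and E. WT mouse D was above KO mouse F, so the groups overlapped, and the means were 6.05 ± 2.15 and 2.79 ± 1.72 CPM (SD, n = 3 each; log2 fold change 1.10, SE 0.44). Without mouse D the log2 fold change was 1.68, and without mouse B it was 0.78.

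The remaining genes act in signalling, at the cell cortex and outside the cell. Gng4 (chromosome 13, 13784059 to 13827896) encodes a gamma subunit of heterotrimeric G proteins. It had 41.1, 50.6 and 44.7 CPM in KO mice A, C and F, against 16.0, 18.4 and 20.4 CPM in WT mice B, D and E, a log2 fold change of 1.31 (SE 0.15). The lowest KO library was 2.01 times the highest WT library.

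Frmd7 (chromosome X, 50895180 to 50942710) encodes a FERM domain protein known from inherited nystagmus. Its level was 4.31, 5.83 and 4.55 CPM in KO mice A, C and F and 0.451, 0.552 and 0.352 CPM in WT mice B, D and E. This was the widest gap of the 10 genes, with the lowest KO library at 7.81 times the highest WT library and a log2 fold change of 3.42 (SE 0.34). The gene is X-linked, and KO mouse F and WT mouse E, the mice with Xist RNA, lay at 4.55 and 0.352 CPM. Cpa6 (chromosome 1, 10324720 to 10719945) encodes a secreted carboxypeptidase of the extracellular matrix and had 5.12, 5.39 and 3.36 CPM in the KO mice and 0.709, 0.452 and 0.553 CPM in the WT mice. Its log2 fold change was 3.01 (SE 0.35), on 9 to 11 counts in each WT library, and its lowest KO library was 4.74 times its highest WT library.

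The KO mice did not take a fixed order over the 10 genes. Mouse C was the highest KO mouse for 7 genes and mouse A for the other 3 (Pbx3, Scgn and Meis2), while F was the lowest for 5, A for 4 and C for 1. Among the WT mice, B and D were each highest for 4 genes and E for 2. The mean of the standardised log2 levels of the 10 genes followed Frmd7 (Pearson r 0.98), Sp8 (0.96), Pbx3 (0.96), Gng4 (0.96) and Cpa6 (0.96) most closely over the 6 libraries, Scgn (0.85), Th (0.84) and Meis2 (0.81) less so, and ran against Etv1 (-0.67) and Calb2 (-0.24). These correlations are a description over 6 libraries, in which each gene is also part of the mean and the 2 genotypes form the main contrast.

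**Figure D2:**
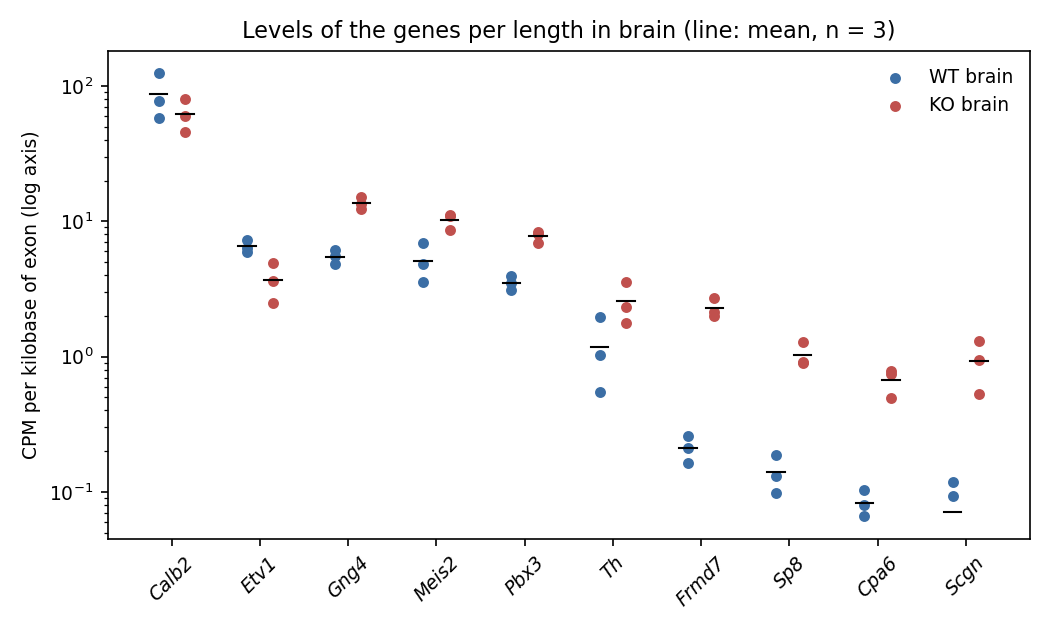
Level of the 10 genes in each brain library in CPM per kilobase of exon on a log axis, with WT mice in blue, KO mice in red and the group mean (n = 3) as a line. Calb2 is the highest gene in both groups, and the WT library in which Scgn has no count cannot be drawn on the log axis.

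Per kilobase of exon, Calb2 was the most abundant of the 10 genes in WT brain, at 86.6 ± 34.4 CPM per kilobase (SD, n = 3). Etv1 followed at 6.52 ± 0.664, Gng4 at 5.47 ± 0.652, Meis2 at 5.08 ± 1.67, Pbx3 at 3.52 ± 0.404 and Th at 1.18 ± 0.728 CPM per kilobase. The ranges of Etv1, Gng4, Meis2 and Pbx3 overlapped from each to the next, whereas Calb2 lay above Etv1, Pbx3 above Th and Th above Frmd7 in every library. Frmd7 (0.211 ± 0.0467), Sp8 (0.139 ± 0.0447), Cpa6 (0.0835 ± 0.0190) and Scgn (0.0708 ± 0.0627) formed the low end, where neighbours overlapped again.

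In KO brain the order per kilobase was Calb2 (62.0 ± 17.4), Gng4 (13.6 ± 1.44), Meis2 (10.3 ± 1.44), Pbx3 (7.73 ± 0.735), Etv1 (3.67 ± 1.2), Th (2.56 ± 0.908), Frmd7 (2.28 ± 0.381), Sp8 (1.03 ± 0.217), Scgn (0.925 ± 0.386) and Cpa6 (0.676 ± 0.161). Each of the first 4 lay above the next in every library. Etv1 overlapped Th, Th overlapped Frmd7, and Sp8, Scgn and Cpa6 overlapped in turn, while Frmd7 lay above Sp8. Etv1 thus stood at the second place in WT brain and at the fifth in KO brain, and the 4 least abundant genes were the same in both groups.

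The neighbours of the 10 genes in the biology of the bulb were followed in lists of 5 to 14 genes, written with earlier results of these samples known and described by counts and medians alone. Of 14 other genes of bulb interneurons and their regulators, 13 were tested and 0 were called by edgeR (6 higher and 1 lower at an unadjusted p under 0.05, 2 called by DESeq2). The 3 KO libraries lay above the 3 WT libraries for 7 of the 13, and the median log2 fold change was 0.88. Tshz1, a zinc finger factor of bulb interneurons, was at 45.9, 64.6 and 42.6 CPM in KO mice A, C and F and at 28.7, 38.1 and 37.3 CPM in WT mice B, D and E (log2 fold change 0.56, SE 0.19, edgeR adjusted p 0.391). Synpr, a synaptic vesicle protein of granule cells, was at 62.3, 56.2 and 54.6 CPM against 43.2, 37.4 and 49.6 CPM (0.41, SE 0.15, adjusted p 0.394). For both genes the groups did not overlap. Among genes chosen after their values were seen, Dlx1 had the largest log2 fold change of the list at 1.66 (SE 0.27, edgeR adjusted p 0.147), and Pax6, which bulb interneurons share with cerebellar granule cells, had the lowest at -0.76 (SE 0.28, adjusted p 0.400).

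Neuroblasts and progenitors, from which the interneurons come, were covered by 8 genes. edgeR called 0 of them (5 higher and 0 lower at an unadjusted p under 0.05, 1 called by DESeq2), the KO libraries lay above the WT libraries for 6, and the median log2 fold change was 0.58. Dcx, a microtubule protein of migrating neuroblasts, was at 43.3, 37.8 and 48.1 CPM in KO mice A, C and F and at 25.7, 13.0 and 19.1 CPM in WT mice B, D and E (log2 fold change 1.16, SE 0.23, edgeR adjusted p 0.320). Sox4, a transcription factor of young neurons, was at a log2 fold change of 0.33 (SE 0.14, adjusted p 0.435). The summed level of the list was 113 to 132 CPM in KO and 69.7 to 87.3 CPM in WT.

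Mitral and tufted cells are the output neurons of the bulb. Of 5 markers of mitral and tufted cells, edgeR called 3 higher in KO (Cdhr1, Doc2g and Shisa3, the last named after its value was seen), the KO libraries lay above the WT libraries for 4, and the median log2 fold change was 2.72. Cdhr1, a cadherin of mitral and tufted cells, was at 10.7, 19.1 and 14.5 CPM in KO mice A, C and F and at 1.35, 2.31 and 2.96 CPM in WT mice B, D and E (log2 fold change 2.72, SE 0.32, edgeR adjusted p 0.0241). Doc2g, a protein with C2 domains, was at 6.34, 6.76 and 5.27 CPM against 0.193, 0.903 and 0.301 CPM (3.65, SE 0.46, adjusted p 0.0309). The 3 calls fell to 1 without KO mouse A or WT mouse D and to 0 without KO mouse F, WT mouse B or WT mouse E. The summed level of the 5 genes was 25.8 to 43.2 CPM in KO and 5.41 to 12.3 CPM in WT.

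Olfactory sensory neurons, whose axons enter the bulb, were followed with 8 genes. Of these, 5 were tested and edgeR called 2 higher, Omp and S100a5 (3 higher and 1 lower at an unadjusted p under 0.05, 4 called by DESeq2). Omp, the olfactory marker protein, was at 7.72, 12.2 and 14 CPM in KO mice A, C and F and at 0.838, 0.652 and 1.11 CPM in WT mice B, D and E (log2 fold change 3.70, SE 0.32, edgeR adjusted p 0.00674). S100a5, a calcium-binding protein of sensory neurons, had 249 counts in the 3 KO libraries and 4 in the 3 WT libraries, a ratio of 83.3 on TMM-scaled totals with an exact counting interval from 32.1 to 308 (edgeR adjusted p 0.00674). The summed level of the list, 30.1 to 41.6 CPM in KO and 25.3 to 36.8 CPM in WT, overlapped, with Gng13, a G protein subunit also made by Purkinje cells, as its largest part. Gng13 had a log2 fold change of -0.78 (SE 0.22, adjusted p 0.346) and was named after its value was seen. The part of mitral, tufted and sensory neuron RNA in the levels of the 10 genes was not tested.

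**Figure D3:**
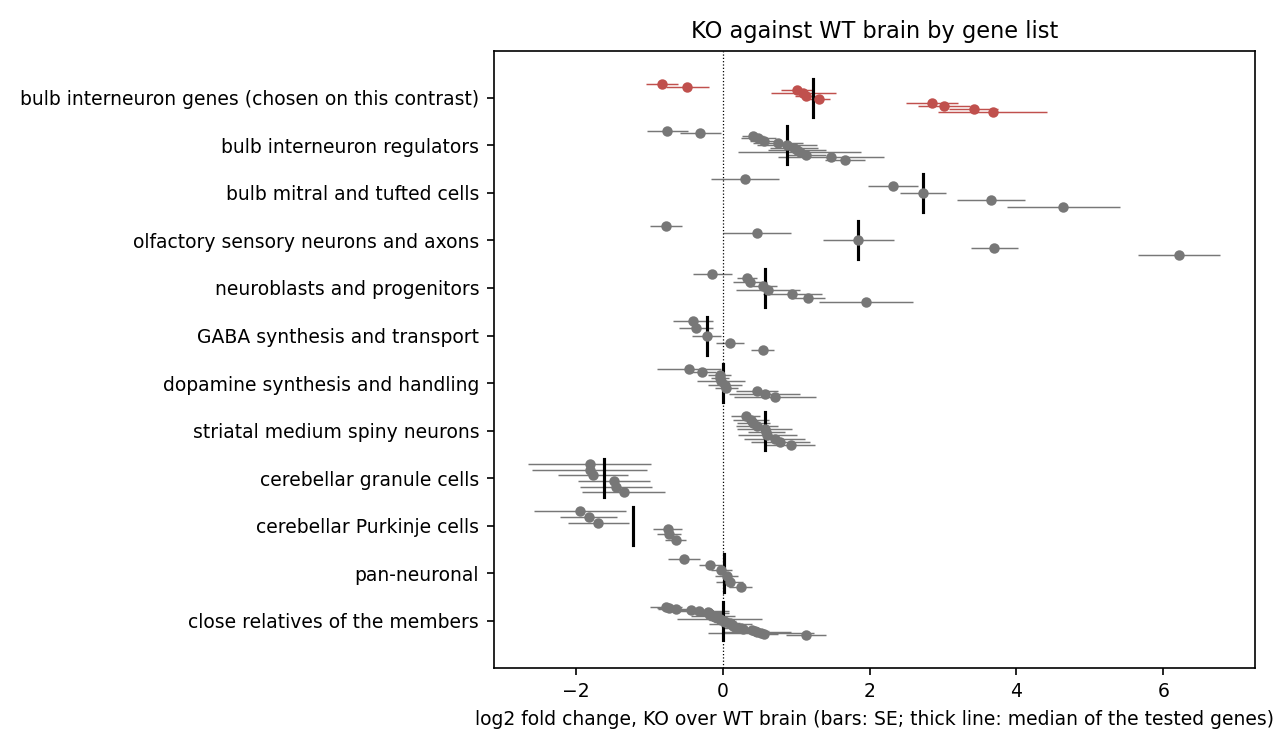
Fitted log2 fold change of KO over WT brain for each tested gene (point, with its SE) of 12 gene lists, the 10 bulb interneuron genes in red, with the list median as a thick line and 0 as a dotted line. The medians of the bulb lists lie to the right of 0 and those of the cerebellar lists to the left, and fitted values of genes with almost no WT counts, such as Scgn and S100a5, depend on the prior count.

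General genes of inhibitory and dopamine transmission had medians closer to 0. Of 5 genes of GABA synthesis and transport, edgeR called 0 (1 higher and 0 lower at an unadjusted p under 0.05, 0 by DESeq2), with a median log2 fold change of -0.22. Gad1, which makes GABA from glutamate, was at 153, 235 and 162 CPM in KO mice A, C and F and at 140, 194 and 180 CPM in WT mice B, D and E, so its groups overlapped (log2 fold change 0.10, SE 0.20, edgeR adjusted p 0.852). Abat, which breaks GABA down, was at -0.22 (SE 0.20, adjusted p 0.670). Gad2, named after its value was seen, was at 0.55 (SE 0.16, edgeR adjusted p 0.355). Its KO libraries all lay above its WT libraries, as for no other gene of the list, while 3 of the 5 had a log2 fold change below 0. Of 10 other genes of dopamine synthesis and handling, 0 were called (0 at an unadjusted p under 0.05, 0 by DESeq2), 0 had groups without overlap, and the median was 0.0034. Qdpr, which regenerates the cofactor of Th, was at -0.04 (SE 0.16, adjusted p 0.929 by edgeR).

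Th is also made by dopamine neurons of the midbrain. The summed level of their markers was 22.8, 37.0 and 22.7 CPM in KO mice A, C and F and 30.4, 49.9 and 41.3 CPM in WT mice B, D and E, so the groups overlapped. Within each genotype the sum ranked the mice as Th did, from F through A to C in KO, where A and F were nearly level in the sum, and from B through E to D in WT. Of the 17 list sums, 4 did so, the others being those of the bulb interneuron regulators, of GABA synthesis and transport and of cortical interneurons. Of 10 such genes 7 were tested, 0 were called (1 lower at an unadjusted p under 0.05, 0 by DESeq2), and the median log2 fold change was -0.53. En1 and Nr4a2 are transcription factors of these neurons. En1 had 0 counts in KO mouse A and 12 to 115 in the other 5 libraries (log2 fold change -1.52, SE 0.89, edgeR adjusted p 0.538), and Nr4a2, which ran from 17.8 to 35.7 CPM and made up most of the sum, was at -0.57 (SE 0.20, adjusted p 0.394). Slc6a3, the dopamine transporter, was the 1 tested marker above 0, at 1.80 CPM in KO and 1.2 CPM in WT on average (0.57, SE 0.49, adjusted p 0.652), and is named after its value was seen. The part of midbrain RNA in the level of Th was not tested.

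Markers of the cerebellum lay below WT, as Etv1 did. All 6 markers of cerebellar granule cells had the 3 KO libraries below the 3 WT libraries, with a median log2 fold change of -1.62, though edgeR called 0 (4 lower at an unadjusted p under 0.05, 0 by DESeq2). Their summed level was 45.3, 416 and 252 CPM in KO mice A, C and F and 652, 1099 and 586 CPM in WT mice B, D and E. KO mouse A stood far below the rest. Cbln3, a secreted protein of granule cells, was at 8.78, 132 and 86.8 CPM in KO against 227, 362 and 211 CPM in WT (log2 fold change -1.81, SE 0.78, adjusted p 0.459), and Fat2, a cadherin of their axons, was at -1.81 (SE 0.83, adjusted p 0.467).

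Etv1 placed the 6 brain libraries in the same order as this sum, A, F, C, E, B and D from lowest to highest. The order was compared for the 10 genes with the sums of 17 lists, after the values were seen, and 1 of the 170 pairs agreed in it. The order places all KO below all WT libraries, as the choice of Etv1 already did. Among the 1365 genes with KO below WT, 216 (15.8%) had it, which is 1.26% of all 17188 genes tested. So had 4 of the 6 granule cell markers, whose own sum defined the order. Calb2, which cerebellar granule cells also use, was likewise lowest in mouse A and highest in mouse D, but KO mouse C lay above WT mice B and E. Purkinje cell markers likewise stood lower in each KO library than in any WT library for 6 of 6, with a median of -1.22 (0 called by edgeR, 6 lower at an unadjusted p under 0.05, 4 called by DESeq2), and sums of 861 to 1351 CPM in KO and 1820 to 2268 CPM in WT. Itpr1 and Car8, both used in Purkinje cell calcium signalling, were at -0.75 (SE 0.20) and -1.70 (SE 0.42), each with an edgeR adjusted p of 0.320. The part of cerebellar RNA in the levels of Etv1 and Calb2 was not tested.

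**Figure D4:**
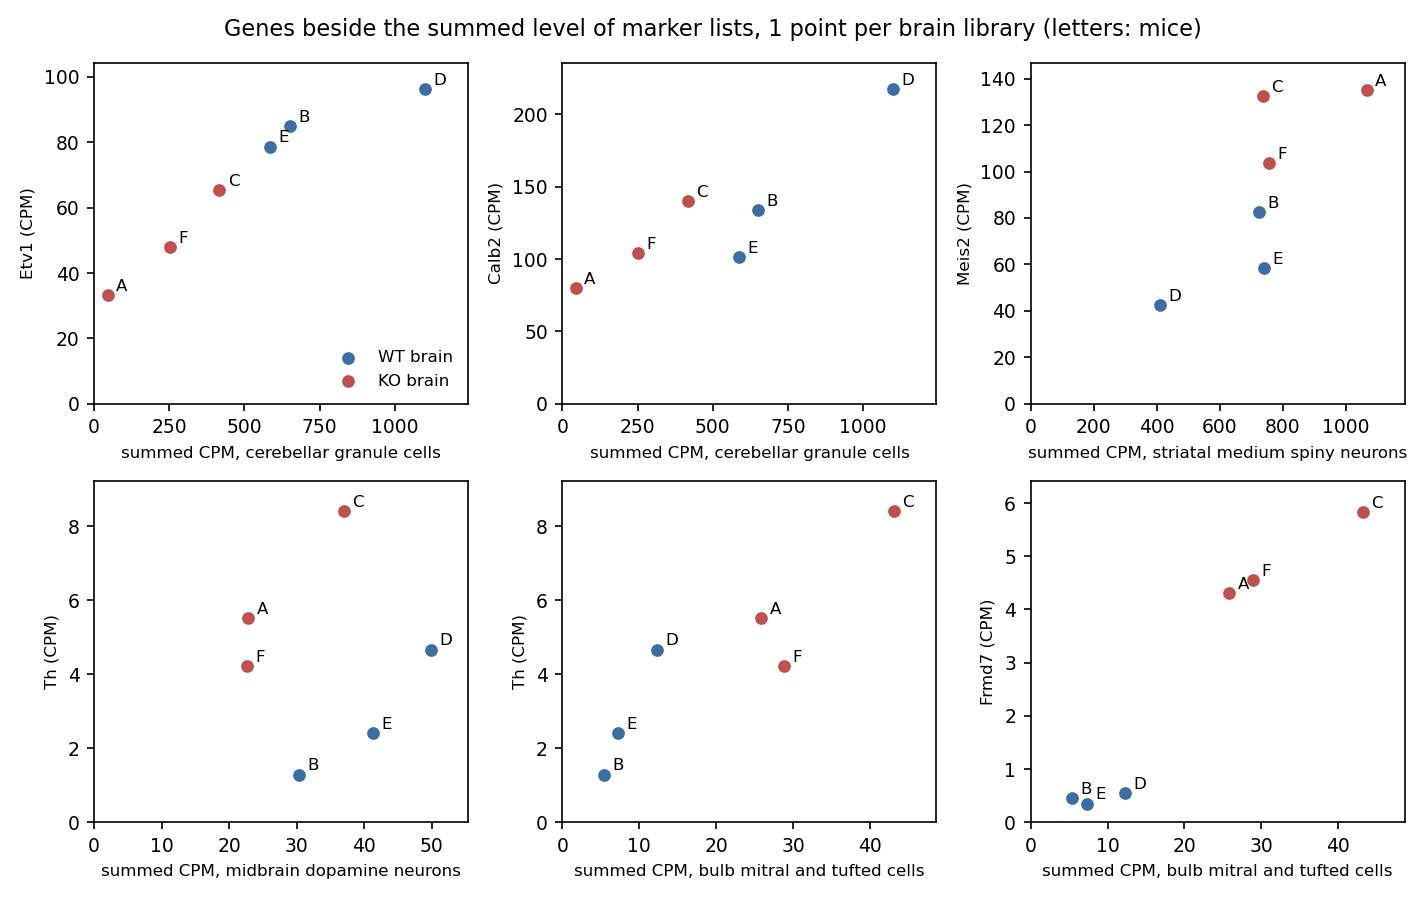
Level of Etv1, Calb2, Meis2, Th and Frmd7 in each brain library (vertical axes, CPM) against the summed level of a marker list in the same library (horizontal axes, CPM), with WT mice in blue, KO mice in red and letters for mice. Etv1 and the cerebellar granule cell sum rank the 6 mice alike, whereas the midbrain dopamine neuron sum is highest in WT mouse D, where Th lies below its level in KO mice A and C.

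Meis2 is also made in the striatum, and the 10 markers of striatal medium spiny neurons had a median log2 fold change of 0.58. edgeR called 0 of them (2 higher and 0 lower at an unadjusted p under 0.05, 0 by DESeq2). Their sum was 1067, 738 and 756 CPM in KO mice A, C and F and 726, 409 and 742 CPM in WT mice B, D and E, so KO mouse C lay below WT mouse E. From lowest to highest, the sum ran D, B, C, E, F and A, and Meis2 ran D, E, B, F, C and A, so only the ends agreed. The part of striatal RNA in the level of Meis2 was not tested. Pde10a and Penk, a phosphodiesterase and an opioid precursor of these neurons, were at 0.38 (SE 0.25) and 0.42 (SE 0.23), with edgeR adjusted p-values of 0.566 and 0.510.

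Cortical layer 5, where Etv1 is made too, gave 6 markers with a median of 0.36, and Bcl11b and Ldb2 were at 0.38 (SE 0.24, edgeR adjusted p 0.565) and 0.34 (SE 0.19, adjusted p 0.516). Cortical interneurons, some of which contain calretinin, gave a median of 0.03 over 6 markers. Among them Sst was at -0.06 (SE 0.16, adjusted p 0.902) and Pvalb, which cerebellar neurons also make, at -0.88 (SE 0.26, adjusted p 0.355). Hypothalamic peptide genes varied widely between mice, with sums of 7.41 to 36.4 CPM in KO and 6.98 to 22.2 CPM in WT and a median of 0.82 over 5 tested genes, Pmch being at 0.34 (SE 0.84, adjusted p 0.884) and Trh at 1.04 (SE 0.32, adjusted p 0.355). edgeR called 0 genes of these 3 lists, with 2 higher and 1 lower at an unadjusted p under 0.05 in all and 1 called by DESeq2, in the interneuron list.

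Broad cell classes were covered by 3 lists. The medians were -0.25 for 6 astrocyte genes, -0.16 for 6 oligodendrocyte genes and 0.02 for 6 pan-neuronal genes, with 0 called in each (0 higher and 1, 0 and 1 lower at an unadjusted p under 0.05, 0 by DESeq2). Snap25 was at -0.02 (SE 0.15, edgeR adjusted p 0.973) and Map2 at 0.24 (SE 0.15, 0.554). Slc1a3 and Slc1a2, the glutamate transporters of astrocytes, were at -0.42 (SE 0.17, 0.415) and 0.02 (SE 0.21, 0.977), and the myelin genes Mbp and Mobp at -0.20 (SE 0.19, 0.672) and 0.30 (SE 0.16, 0.493).

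Relatives of the 10 genes by sequence family were described in the same way. Of 35 relatives, among them other G protein gamma subunits, Sp factors, Pbx and Meis factors, FERM domain proteins, carboxypeptidases and ETS factors, 28 were tested and 0 were called (4 higher and 4 lower at an unadjusted p under 0.05, 3 by DESeq2). Their median log2 fold change was 0.0011, with the KO libraries above the WT libraries for 4 and below them for 3. Calb1, which encodes calbindin and belongs to the Purkinje list as well, was at 104, 118 and 153 CPM in KO mice A, C and F and at 222, 215 and 184 CPM in WT mice B, D and E (log2 fold change -0.73, SE 0.17, edgeR adjusted p 0.320).

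The 5 genes outside the 10 whose log2 levels most resembled the mean standardised profile of the 10 genes over the 6 brain libraries were Shisa3 (Pearson r 0.990), Tbx21 (0.990), Gm42974 (0.985), Nrip3 (0.984) and Nup210l (0.983). Shisa3 and Tbx21 are on the list of mitral and tufted cell genes. Nrip3 was at 163 CPM in KO and 126 CPM in WT brain, and Tbx21 at 1.09 and 0.0382 CPM. Tbx21 had 45 counts in the KO libraries and 2 in the WT libraries, a ratio of 30.1 on TMM-scaled totals with an exact counting interval from 7.86 to 256. The likeness rests on 6 libraries in which KO and WT differ, so any gene with the same contrast scores highly.

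In liver, which did not choose the genes, 3 of the 10 passed the filter on low counts, and none was called. Over all 14075 genes tested in liver, edgeR called 0% at an adjusted p under 0.1 (1032 genes at an unadjusted p under 0.05, 171 called by DESeq2), and 12.9% had KO and WT libraries without overlap. Meis2 was at 7.95, 7.0 and 7.04 CPM in the livers of KO mice A, C and F and at 9.68, 9.28 and 12.4 CPM in those of WT mice B, D and E. All KO libraries were below all WT libraries, opposite to brain, but the difference did not pass the test (log2 fold change -0.51, SE 0.18, edgeR adjusted p 0.552; unadjusted p under 0.05). Pbx3 overlapped, at 2.50 to 3.69 CPM in KO and 2.95 to 3.58 CPM in WT (log2 fold change -0.02, SE 0.27, adjusted p 0.994). Etv1 overlapped too, at 1.06 to 1.62 CPM in KO and 1.13 to 1.53 CPM in WT (log2 fold change 0.0041, SE 0.36, adjusted p 0.999).

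The other 7 genes were at the limit of detection in liver. Sp8, Scgn, Th and Cpa6 had 0 counts in all 6 liver libraries, Frmd7 had 1 count in WT mouse E, and Gng4 had 1 count each in KO mouse C and WT mouse D. Calb2 had 5 counts in KO mouse A and 0 in the rest, and that library also had 21 counts of Snap25 against 2 to 7 in the other 5 liver libraries. A count of 0 allows up to 3 counts in a library, or 0.154 to 0.192 CPM at these depths, so the difference between KO and WT could not be measured for these genes.

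The levels in WT brain and WT liver are given as a description, since the genes were chosen as brain markers on libraries that include these WT brains. Of the 10 genes 6 passed the filter on low counts, mostly through brain. Over the 17694 genes tested, edgeR called 42.9% higher in brain at an adjusted p under 0.1, and no call is read for the 10 genes. Etv1 was at 63.8 to 77.5 CPM in WT brain and 1.48 to 1.98 CPM in WT liver on the scale of this fit (log2 fold change 5.38, SE 0.20). Pbx3 was at 15.4 to 19.5 CPM against 3.81 to 4.62 CPM (2.07, SE 0.20), and Meis2 at 34.3 to 67.1 CPM against 12 to 16.0 CPM (1.87, SE 0.25). These 3 are the transcription factors with a clear level in liver.

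Calb2 had 0 counts in WT liver and was at least 547-fold higher in brain, and Th, also at 0, at least 10.1-fold higher, each against a floor of 3 counts per library. Gng4 had 1022 counts in WT brain and 1 in WT liver, a ratio of 607 on TMM-scaled totals with an exact counting interval from 109 to 23993, and of 1095 on raw library totals. The other 4 genes did not pass the filter even with WT brain. Sp8 and Cpa6, at 0 in WT liver, were at least 2.31-fold and 2.07-fold higher in brain by the same floor, Frmd7 had 25 counts against 1 (ratio 14.8 on TMM-scaled totals, interval 2.43 to 609, and 26.8 on raw totals), and for Scgn both tissues were at or under the floor.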

How the data were processed

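The authors prepared stranded total RNA libraries and sequenced them as single-end reads. Per the submitters' processing notes and the study's methods, reads were checked with FastQC 0.11.5, trimmed with Trimmomatic, aligned to mm10 with STAR 2.7.3a and counted per gene in the reverse-stranded mode of featureCounts. The deposited values are raw counts per gene, without normalisation. Of the 55487 genes, 55141 were matched to a symbol, with positions from GENCODE on the same build. Counts sum over all exons, and 0 columns of other samples were present.

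Groups follow the labels. The 10 genes, the lists and the tests were chosen with earlier results of these data known. Each comparison (6 brain, 6 liver, 6 WT libraries) was fitted with edgeR 4.0.16 in R 4.3.3 (TMM, filterByExpr, robust quasi-likelihood F test, Benjamini-Hochberg over all genes tested, threshold 0.1). CPM are edgeR's values on the TMM-scaled total of each fit. The SE of a log2 fold change is its absolute value divided by the square root of F in that fit. For the 10 genes in brain it is given as a description and not as a test. Named from each list were its 2 called genes with the smallest p, or else those with the highest mean CPM, up to 2 in all, together with the 10 genes, Mettl5 and the 5 genes most like them, and genes outside that rule are marked in the text. Some genes that the rule names are not reported here. Several genes stand in 2 lists (Sp9, Drd2, Slc6a3, Calb1, Gng8 and Gng13).

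Alternatives were DESeq2 1.42.0, another normalisation (RLE), no filter on low counts, all 12 libraries in 1 fit, Y-linked transcripts as a covariate, no mitochondrial rRNA, each mouse left out, the mouse as a block between tissues and, added after seeing the data, an offset for GC content and length. The labels pair brain and liver by mouse. As a check of the pairing, each library's deviation from its group mean was correlated between the brain and liver of a mouse over 12574 genes, and Pearson's r ran from -0.0566 (mouse B) to 0.126 (mouse E). The samples are separate mice, and the labels give no batch. The study's figure text counts the sequenced KO and control mice as 3 pairs, but no label tells which mouse belongs to which pair, so the genotypes were compared unpaired. Promoter sequences are RefSeq's (GRCm38.p6), and windows for Pbx3, Cpa6 and Calb2 were not used here.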

Additional observations from a re-analysis of the deposited data

How the results depend on the processing

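The direction of all 10 genes between KO and WT brain was kept under all 13 alternatives. Refits of the libraries that chose these genes are no independent support for their direction. Their log2 fold changes ranged from 1.23 to 1.41 for Gng4, 2.66 to 3.13 for Sp8, 0.87 (GC and length offset) to 1.22 for Pbx3, 3.27 to 3.59 for Frmd7, 2.84 to 3.20 for Cpa6, 3.08 to 4.18 for Scgn, 0.78 to 1.68 for Th, -0.72 to -0.12 for Calb2, 0.81 to 1.29 for Meis2 and -1.09 to -0.61 for Etv1. The number of genes called in brain was 11, and it was 1000 with no filter on low counts, 269 with DESeq2 and 87 once an offset for GC content and length was used, which was added after seeing the data. Leaving out 1 mouse gave 2 (without WT mouse E) to 23 (without KO mouse C) calls, with 6 without A, 5 without F, 3 without B and 4 without D. The lists moved with the same settings. With no filter, edgeR called 5 of the bulb interneuron regulators, 2 neuroblast genes, 4 sensory neuron genes, 4 Purkinje genes, 6 relatives and 1 gene in each of 9 further lists, leaving 0 among the other dopamine genes and the astrocyte genes. With the offset it called 3 regulators, 1 neuroblast gene, 2 Purkinje genes and 2 relatives, and without KO mouse C 1 Purkinje gene.

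In liver the count of 0 became 443 with no filter, 171 with DESeq2, 3 with all 12 libraries in 1 fit and 82 with Y-linked transcripts as a covariate, and 0 to 87 when 1 mouse was left out, with 87 without WT mouse D. None of these calls was one of the 10 genes. The liver values of Pbx3 and Etv1 lay near 0 and turned sign. Pbx3 was at 0.0088 with all 12 libraries, 0.18 with the offset and -0.15 to 0.13 over the mice left out, and Etv1 at -0.0044 with the covariate and -0.19 to 0.14 over the mice left out, with -0.085 without WT mouse B and -0.035 without WT mouse D. The cause was not tested.

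For WT brain against WT liver, the fit with the mouse as a replicate block called 13588 genes against 13861 without it. The other alternatives gave 12830 to 16754 calls. Precision is limited by 3 mice a group and by WT counts of 0 to 17 for Sp8, Frmd7, Cpa6 and Scgn.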
